A study of Mus musculus with 14 samples.

Results

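The genes described here are 7 cytokine genes of the TNF and interleukin group, *Tnf*, *Il1a*, *Il1b*, *Il1rn*, *Il18*, *Il6* and *Il10*. They were taken by symbol, whatever their values, from the 33939 genes measured by RNA-seq in CD11b+ microglia/macrophages of the mouse brain 3 days after traumatic brain injury (TBI). All 7 passed the filter on low values in all 5 comparisons. C57BL/6 mice of 8-12 weeks, all male, received a controlled cortical impact on one hemisphere. CD11b+ cells were then collected with magnetic beads from the injured ipsilateral (IL) and the contralateral (CL) hemisphere.

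The cKO mice were Cx3cr1-CreER+/-; Nhe1flox/flox. The controls (Ctrl) were Cx3cr1-CreER+/- without the floxed alleles, and both genotypes received tamoxifen. The *Cx3cr1* promoter drives CreER in microglia and also in other cells that use this promoter, and the CD11b+ selection does not separate microglia from macrophages or other CD11b+ cells. The Ctrl mice gave 4 CL and 4 IL libraries and the cKO mice 3 of each, from 8 mice in all, and 6 mice (4 Ctrl and 2 cKO) gave both hemispheres. Libraries are named here by mouse number. Every library came from an injured brain, so CL is the other side of an injured brain and not tissue of a naive mouse.

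The depth ranged from 12.2 M reads in Ctrl IL of mouse 3546 to 41.6 M in Ctrl CL of mouse 3541. Homeostatic microglia markers were the most abundant of the cell type lists. The 8 genes summed to 14566 to 17244 CPM (counts per 1e+06 reads) in IL and 25202 to 35143 in CL, and 6 of 8 were called lower in IL in each genotype, against 2.96% of all genes in Ctrl and 9.52% in cKO. *Cd3e* and *Cd3d*, markers of T cells, were at 0 in 2 libraries each, and *Syt1*, a neuronal gene, in 4.

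Tumour necrosis factor (TNF) and the interleukins are secreted or membrane-bound messengers through which innate immune cells, microglia among them, start and stop inflammation. IL-1 alpha (*Il1a*) and IL-1 beta (*Il1b*) bind the same signalling receptor, and the IL-1 receptor antagonist (*Il1rn*) occupies that receptor without signalling. IL-1 beta and IL-18 are made as precursors that inflammasome proteases cut, so a transcript level is not a level of active cytokine. IL-6 acts through a receptor that shares the subunit gp130, and IL-10 restrains the production of the others.

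*Tnf* lies at chr17:35199381-35202007 on the minus strand of GRCm38. Its IL-1 family counterparts *Il1a* (chr2:129299610-129309972) and *Il1b* (chr2:129364570-129371139) are neighbours on the minus strand of chromosome 2, and *Il1rn* (chr2:24336853-24351494) lies on the plus strand of the same chromosome. *Il18* is at chr9:50554827-50581840, *Il6* at chr5:30013114-30019981 and *Il10* at chr1:131019845-131024974, all on the plus strand. The sources used here do not say whether reads were counted by strand. Reads of *Il1a* and the overlapping *Gm14023*, of *Il1b* and *Il1bos*, and of *Il18* with *Bco2* and *Tex12*, which are annotated on the other strand, therefore cannot be told apart.

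The bases before the transcription start show how the regulatory letters differ among these genes. RefSeq windows of GRCm38.p6 were matched for 6 of the 7 genes, with 3 starts for *Il1rn* and 1 for each other gene. The windows were searched on both strands for an NF-kB motif (GGG and TTCC around 3 free bases), an AP-1 motif (TGANTCA) and a C/EBP motif (TTGCNNAA), which were found in 4.65%, 6.75% and 9.56% of 32851 windows of the same length. The 250 bases before the start are shown for *Il1rn* and *Il1b*, the members with the clearest rise in IL, and for *Il6*, whose window held all 3 motifs. Capitals mark motif matches.

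*Il1rn*, the first start (plus strand, chr2:24336610-24336859): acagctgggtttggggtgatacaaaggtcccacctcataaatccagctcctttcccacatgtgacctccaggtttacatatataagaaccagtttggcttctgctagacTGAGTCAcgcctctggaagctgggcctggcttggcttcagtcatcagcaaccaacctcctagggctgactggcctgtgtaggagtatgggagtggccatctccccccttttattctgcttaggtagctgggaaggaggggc

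*Il1rn*, the third start (plus strand, chr2:24345121-24345370): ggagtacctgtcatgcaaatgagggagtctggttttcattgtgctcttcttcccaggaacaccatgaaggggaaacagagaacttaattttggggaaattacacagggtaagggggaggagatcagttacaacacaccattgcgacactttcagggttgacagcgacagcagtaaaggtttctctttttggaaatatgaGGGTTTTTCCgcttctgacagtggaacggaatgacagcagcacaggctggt

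*Il1b* (minus strand, chr2:129371140-129371389): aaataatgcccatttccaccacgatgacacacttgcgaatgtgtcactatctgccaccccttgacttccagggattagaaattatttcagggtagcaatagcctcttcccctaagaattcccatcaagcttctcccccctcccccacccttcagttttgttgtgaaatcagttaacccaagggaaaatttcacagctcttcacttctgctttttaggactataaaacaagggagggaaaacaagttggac

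*Il6* (plus strand, chr5:30012864-30013113): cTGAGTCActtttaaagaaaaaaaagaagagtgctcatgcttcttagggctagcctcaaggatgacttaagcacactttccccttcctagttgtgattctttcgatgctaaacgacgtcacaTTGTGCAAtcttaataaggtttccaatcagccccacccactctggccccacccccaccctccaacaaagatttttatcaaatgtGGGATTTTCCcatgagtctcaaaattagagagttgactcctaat

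The window of the third *Il1rn* start held an NF-kB match from -51 to -42 of the start, and the first an AP-1 match from -141 to -135. In *Il6*, the NF-kB match lay from -44 to -35, the C/EBP match from -128 to -121 and the AP-1 match from -249 to -243. *Il1a* held an AP-1 match from -12 to -6. No match stood in these windows of *Tnf*, *Il1b*, *Il18* or the second start of *Il1rn*. A match is a run of letters and no evidence of binding. The deposited values are sums over a gene, so the 3 starts of *Il1rn* could not be separated.

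The members fell into an abundant and a scarce set. Per kb of exon, *Tnf*, *Il1a* and *Il1b* were the 3 highest in every group, with group means from 209 to 1088 CPM per kb, and no library of theirs overlapped the next gene. *Il1rn* and *Il18* followed and changed places. In CL, *Il18* (15.1 ± 0.634 CPM per kb, SD, in Ctrl, n = 4, and 12.3 ± 1.40 in cKO, n = 3) stood above *Il1rn* (3.48 ± 1.86 and 5.15 ± 2.22). In IL, *Il1rn* (22.5 ± 5.88 in Ctrl and 45.0 ± 12.1 in cKO) stood above *Il18* (10.8 ± 2.11 and 13.7 ± 3.68), and in each group the levels of the pair did not overlap. *Il1rn* and *Il6* overlapped in both CL groups. *Il6* and *Il10* were lowest in every group, at group means from 1.67 to 4.37 CPM per kb. Among the top 3, neighbours overlapped except *Il1a* above *Il1b* in cKO CL and *Tnf* above *Il1a* in cKO IL. The lengths are unions of all annotated exons, which for *Il1rn* is 5535 bases, so its level per kb is a low estimate for any single transcript.

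**Figure D1:**
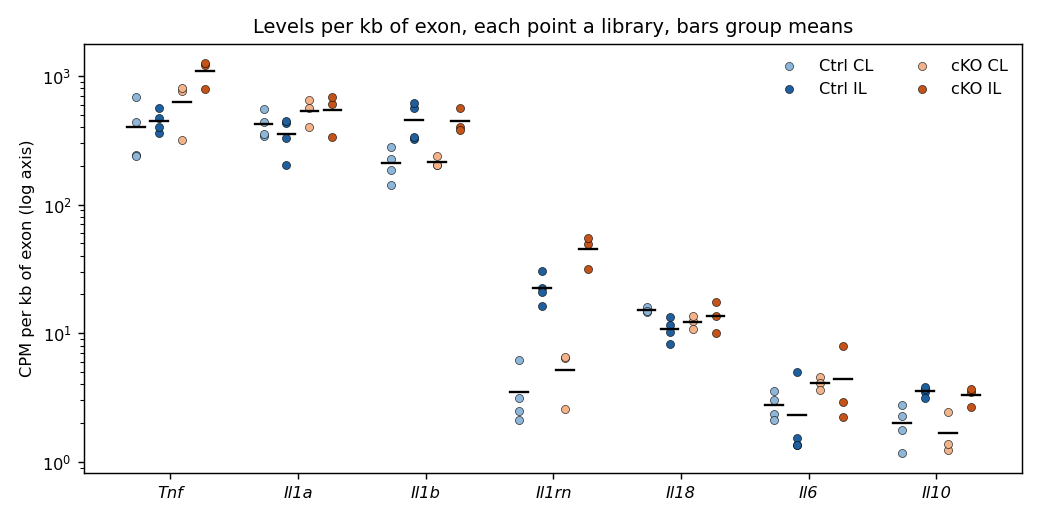
CPM per kb of exon on a log axis for the 7 genes, each point a library and each bar a group mean. *Tnf*, *Il1a* and *Il1b* sit highest, *Il1rn* passes *Il18* from CL to IL, and *Il6* and *Il10* lie below 10 CPM per kb.

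The first question was what the injury side changed. In Ctrl, *Il1rn* alone was called higher in IL than in CL, 1 of 7 genes against a background of 6.56% of 16376 genes called (3.6% higher and 2.96% lower). In cKO, *Il1rn*, *Il1b* and *Il10* were called higher, 3 of 7 against 22.4% of 16757 genes (12.8% higher and 9.52% lower). The fit with the mouse as a block compares the hemispheres within mice (4 in Ctrl and 2 in cKO). There 3 of 7 were called in Ctrl (*Il1rn*, *Il1b* and *Il10*) and 3 of 7 in cKO (*Il1rn*, *Il1b* and *Tnf*), against 20.5% and 13.8% of all genes. A gene was called when its adjusted p was no larger than 0.05 and its level changed 1.2-fold or more. The median log2 fold change of the 7 genes was 0.36 in Ctrl and 0.82 in cKO, beside -0.04 and 0.02 over all genes tested. In these bulk libraries, fewer cells of a type and less RNA per cell cannot be told apart.

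*Il1rn*, the antagonist, showed the largest difference among the 7 genes in both genotypes. Ctrl CL libraries of mice 3541, 3545, 3546 and 3551 held 34.3, 17.4, 13.7 and 11.6 CPM, and the IL libraries of the same mice 123, 168, 115 and 90.4 CPM. In cKO CL, mice 788, 791 and 3592 were at 14.3, 35.4 and 35.8 CPM, and in cKO IL mice 784, 791 and 3592 at 272, 302 and 174 CPM. Every IL library lay above every CL library of either genotype. The log2 fold change of IL against CL was 2.78 (SE 0.38, adjusted p = 0.00273) in Ctrl and 3.24 (SE 0.35, adjusted p = 0.00183) in cKO. *Il1rn* was higher in IL within 6 of 6 mice, by 3.59 to 9.66 times, and was called under all 16 alternatives in Ctrl and all 14 in cKO.

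*Il1b*, the secreted pyrogenic IL-1, rose less. In Ctrl CL it was at 536, 357, 272 and 431 CPM in mice 3541, 3545, 3546 and 3551, and in Ctrl IL at 1067, 1176, 612 and 636 CPM. In cKO CL, mice 788, 791 and 3592 held 389, 455 and 386 CPM, and in cKO IL mice 784, 791 and 3592 held 769, 1084 and 721 CPM. IL and CL did not overlap in either genotype, and the 2 IL groups covered much the same range. The log2 fold change was 1.13 (SE 0.19, adjusted p = 0.00665) in cKO and 1.18 (SE 0.35) in Ctrl, where it missed the threshold (adjusted p = 0.0762). With the mouse as a block, the Ctrl difference was called (adjusted p = 0.00405), as it also was without Ctrl IL of mouse 3546 (adjusted p = 0.0268). The cKO call was lost only in the fit of all 14 libraries (adjusted p = 0.0585). Within mice *Il1b* was higher in IL in 6 of 6, by 1.48 to 3.29 times.

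*Il1a*, the IL-1 that acts largely from the cell surface or after release from damaged cells, did not follow *Il1b*. Its CPM in mice 3541, 3545, 3546 and 3551 were 870, 674, 696 and 1086 in Ctrl CL and 398, 850, 876 and 649 in Ctrl IL. In cKO it was at 1280, 1108 and 792 CPM in CL of mice 788, 791 and 3592, and at 1202, 1359 and 656 CPM in IL of mice 784, 791 and 3592. The hemispheres overlapped in both genotypes, and 3 of 6 mice were higher in IL. The log2 fold changes were -0.23 (95% interval -0.76 to 0.31) in Ctrl and 0.06 (-0.69 to 0.81) in cKO, with adjusted p of 0.678 and 0.909. In Ctrl, mice 3541 and 3551 were lower in IL for both *Il1a* and *Tnf*, and mice 3545 and 3546 were higher for both.

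*Tnf*, a ligand of both TNF receptors, varied widely between mice. Ctrl CL held 714, 399, 389 and 1116 CPM and Ctrl IL 592, 771, 656 and 927 CPM in mice 3541, 3545, 3546 and 3551. In cKO CL, mice 788, 791 and 3592 held 1253, 1320 and 521 CPM, and in cKO IL mice 784, 791 and 3592 held 1988, 2052 and 1310 CPM. The hemispheres overlapped in both genotypes, in cKO only in that mouse 791 in CL stood just above mouse 3592 in IL. The log2 fold change of IL against CL was 0.36 (SE 0.31, adjusted p = 0.585) in Ctrl and 0.96 (SE 0.38, adjusted p = 0.107) in cKO. With a library left out it ranged from 0.12 to 0.64 in Ctrl and from 0.52 to 1.23 in cKO. With the mouse as a block, which rests on mice 791 and 3592, the cKO difference was 1.09 and was called (adjusted p = 0.0141). Both of these mice were higher in IL, as were 2 of 4 Ctrl mice.

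*Il10*, the anti-inflammatory member, was scarce but moved one way. In mice 3541, 3545, 3546 and 3551 it was at 2.31, 3.59, 1.52 and 2.99 CPM in Ctrl CL and at 4.52, 4.84, 4.99 and 4.06 CPM in Ctrl IL. In cKO it was at 1.61, 1.78 and 3.18 CPM in CL of mice 788, 791 and 3592, and at 3.48, 4.55 and 4.83 CPM in IL of mice 784, 791 and 3592. IL lay above CL without overlap in both genotypes, and in 6 of 6 mice, by 1.35 to 3.29 times. The log2 fold change was 0.82 (SE 0.22, adjusted p = 0.0308) in cKO and 0.72 (SE 0.24, adjusted p = 0.111) in Ctrl. The cKO call held in only 5 of 14 alternatives and was lost with the mouse as a block (adjusted p = 0.0789). It was also lost without cKO IL of mouse 784 (adjusted p = 0.0569), 791 (0.108) or 3592 (0.0892) and without cKO CL of mouse 788 (0.0925) or 791 (0.0881), whereas the Ctrl difference was called with the block (adjusted p = 0.0382). The lowest library held about 43 reads of *Il10*.

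*Il18*, which is released after inflammasome cleavage, was the steadiest gene in Ctrl CL, at 15.03, 15.5, 16.5 and 15.2 CPM in mice 3541, 3545, 3546 and 3551. In the Ctrl IL libraries of these mice it was at 13.7, 11.9, 8.51 and 10.6 CPM, all below Ctrl CL. The cKO libraries showed no such order, with 12.8, 14.1 and 11.2 CPM in CL of mice 788, 791 and 3592 and 14.1, 17.8 and 10.3 CPM in IL of mice 784, 791 and 3592. The log2 fold changes were -0.39 (SE 0.23, adjusted p = 0.386) in Ctrl and 0.19 (SE 0.23, adjusted p = 0.583) in cKO. The difference between these 2 changes was 0.59 (95% interval -0.13 to 1.31, adjusted p = 0.9999).

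*Il6*, an inducer of the acute phase response, had no side in common among the mice. It was at 5.67, 7.35, 8.58 and 5.16 CPM in Ctrl CL and at 3.27, 12.1, 3.68 and 3.25 CPM in Ctrl IL of mice 3541, 3545, 3546 and 3551. In cKO CL, mice 788, 791 and 3592 held 11.0, 9.93 and 8.79 CPM, and in cKO IL mice 784, 791 and 3592 held 7.08, 19.3 and 5.44 CPM. A single high library in each IL group, of mouse 3545 and mouse 791, accounted for the highest values, and these were the mice that rose, 2 of 6. The log2 fold changes were -0.32 (95% interval -1.205 to 0.56) in Ctrl and -0.02 (-0.96 to 0.93) in cKO, with adjusted p of 0.731 and 0.984.

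**Figure D2:**
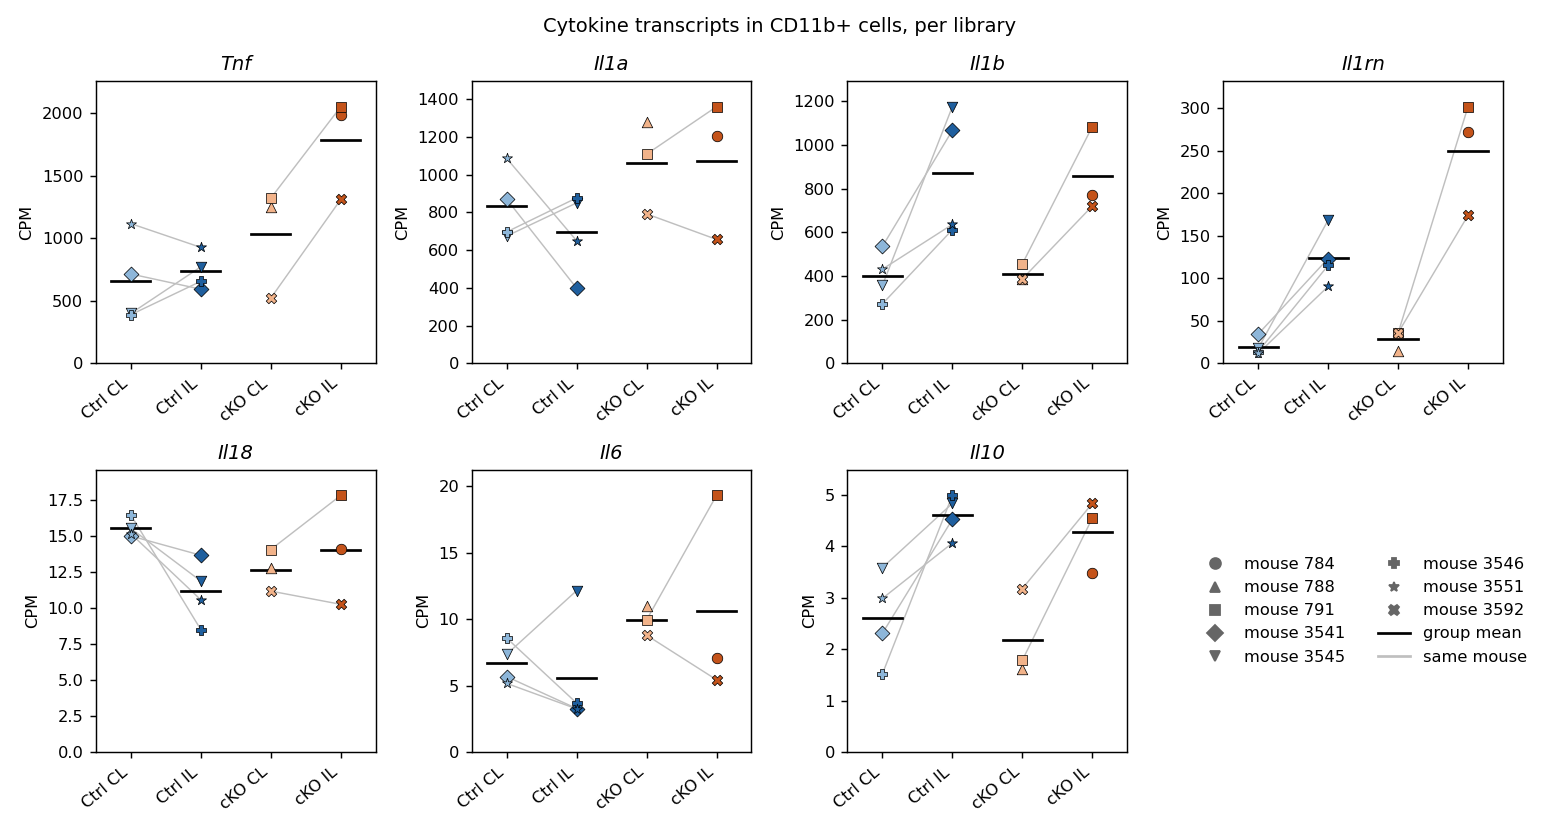
CPM of each gene in each of the 14 libraries, from 0 on linear axes, with groups along the horizontal axis, symbols for mice, grey lines joining the hemispheres of a mouse and black bars for group means. Every IL library of *Il1rn* lies above every CL library, *Tnf* is highest in cKO IL, and *Il6* has 1 high library in each IL group.

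Not overlapping was common in these comparisons. Between hemispheres, 4 of 7 genes did not overlap in Ctrl (*Il1b*, *Il1rn* and *Il10* higher, *Il18* lower), against 17.7% of all genes tested (6.26% higher and 11.4% lower). In cKO, 3 of 7 did not overlap (*Il1b*, *Il1rn* and *Il10*, all higher), against 42.4% (18.1% higher and 24.3% lower).

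The second question was what the deletion changed on each side. No member was called between genotypes in IL, where 0.658% of 16873 genes were called, or in CL, where 0.875% of 16569 genes were. *Tnf* came nearest. In IL its group means (± SD) were 1783 ± 411 CPM in cKO (n = 3) and 736 ± 147 in Ctrl (n = 4), with every cKO library above every Ctrl library. The log2 difference was 1.28 (SE 0.24, 95% interval 0.74 to 1.83), and the adjusted p of 0.0715 missed the threshold. It was called on the deposited CPM without further scaling (adjusted p = 0.0476), without Ctrl IL of mouse 3546, the shallowest library (adjusted p = 0.0336), and without cKO IL of mouse 3592 (adjusted p = 0.0284), whereas the mouse as a random block gave 0.121.

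In CL, *Tnf* was at 1031 ± 443 CPM in cKO and 654 ± 343 in Ctrl. These groups overlapped, with a log2 difference of 0.67 (SE 0.41, adjusted p = 0.638). *Il1rn* in IL was at 249 ± 67.0 CPM in cKO and 124 ± 32.5 in Ctrl, again without overlap. Its log2 difference of 1.01 (SE 0.30, 95% interval 0.31 to 1.70) had an adjusted p of 0.288 and was not called under any of 15 alternatives. *Tnf* and *Il1rn* were the 2 of 7 genes whose genotypes did not overlap in IL, against 10.3% of all genes tested (4.85% higher and 5.48% lower).

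The remaining members lay closer together. *Il1b* in IL was at 858 ± 197 CPM in cKO and 873 ± 291 in Ctrl, a log2 difference of 0.03 with a 95% interval from -0.77 to 0.82. *Il10* in IL was at 4.29 ± 0.713 and 4.60 ± 0.409 CPM, with a difference of -0.08 (-0.50 to 0.34). *Il1a* (0.64, adjusted p = 0.652), *Il6* (0.83, adjusted p = 0.778) and *Il18* (0.31, adjusted p = 0.878) had positive differences in IL with overlapping groups. These intervals leave room for differences of over 1.2-fold in either direction for *Il1b* and *Il10*.

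In CL, *Il6* in cKO (9.91 ± 1.11 CPM, n = 3) lay above Ctrl (6.69 ± 1.57, n = 4), and *Il18* in cKO (12.7 ± 1.45) lay below Ctrl (15.6 ± 0.654). These were the 2 of 7 genes without overlap there, against 10% of all genes tested (3.98% higher and 6.04% lower). Neither was called (log2 differences 0.51 and -0.29, adjusted p = 0.517 and 0.677). *Il1a* differed by 0.34, *Il1rn* by 0.54, *Il1b* by 0.07 and *Il10* by -0.18, with overlapping groups and adjusted p from 0.692 to 0.941.

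Whether the response to the injury side differed between genotypes was asked with the interaction over all 14 libraries. This fit took libraries of the same mouse as independent. No member was called, and 0% of 18475 genes were. limma gave 481 genes an unadjusted p under 0.05. The interaction was 0.60 for *Tnf* (95% interval -0.55 to 1.76), 0.46 for *Il1rn* (-0.80 to 1.72) and -0.05 for *Il1b* (-1.04 to 0.94). With a library left out, that of *Tnf* was 0.16 to 0.86. With the mouse as a random block, no member was called either. A call for *Il1b* or *Il10* in cKO and not in Ctrl therefore does not show that the genotypes differed.

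**Figure D3:**
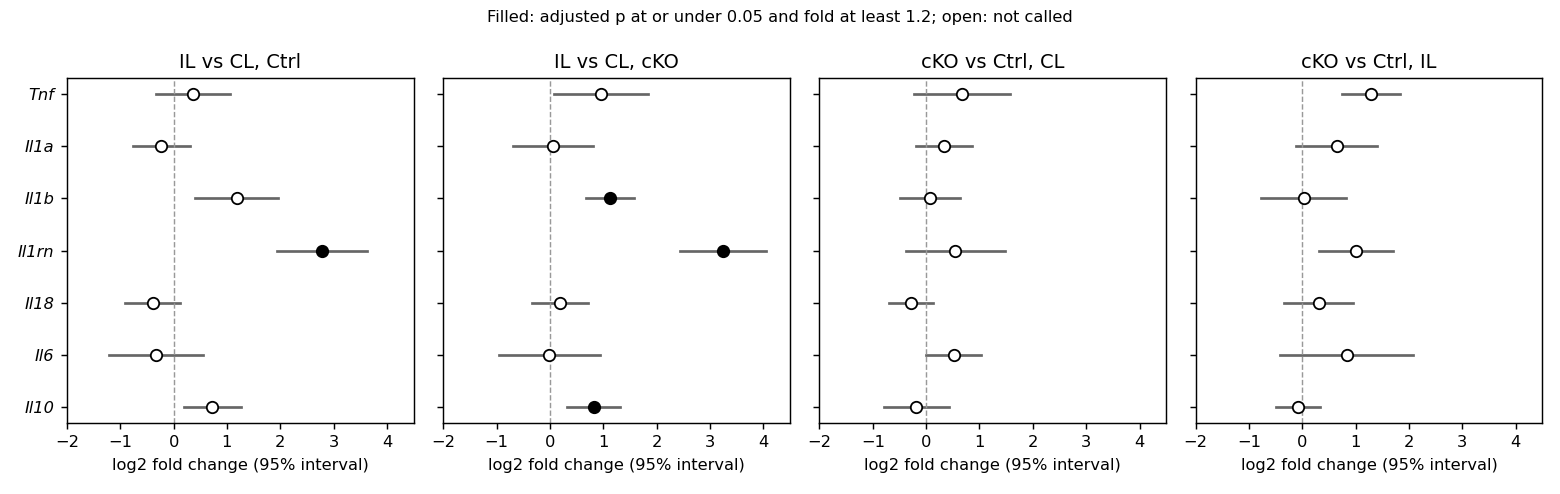
Log2 fold change (horizontal axis, with 95% intervals) of the 7 genes in 4 comparisons, with filled points for called genes and open points for the others. *Il1rn* is called in both comparisons of IL with CL, *Il1b* and *Il10* only in that of cKO in these fits without the mouse block, and no gene between genotypes.

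The balance of antagonist and agonists was taken within each library as the CPM of *Il1rn* over the summed CPM of *Il1a* and *Il1b*, a measure that library scaling cannot move. It was 0.0158 ± 0.00695 (SD, n = 4) in Ctrl CL and 0.0205 ± 0.0111 (n = 3) in cKO CL. In IL it was 0.0787 ± 0.00636 (n = 4) in Ctrl, from 0.0703 to 0.0841, and 0.129 ± 0.00775 (n = 3) in cKO, from 0.124 to 0.138. Each IL library stood above each CL library, and the 3 cKO IL libraries stood above the 4 Ctrl IL libraries, while the CL groups overlapped. These ratios are described without a test, and they are ratios of transcripts and not of proteins. Per kb of exon the 4 group means were 0.00556, 0.00724, 0.0275 and 0.0454, in the same order.

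The IL-1 pair itself shifted toward *Il1b*. The ratio of *Il1b* to *Il1a* CPM was 0.483 ± 0.109 in Ctrl CL and 1.44 ± 0.876 in Ctrl IL, where mouse 3541 reached 2.68. In cKO it was 0.401 ± 0.0927 in CL and 0.845 ± 0.233 in IL. All IL ratios lay above all CL ratios, from 0.640 upward against 0.616 and below, and the IL groups of the genotypes overlapped.

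**Figure D4:**
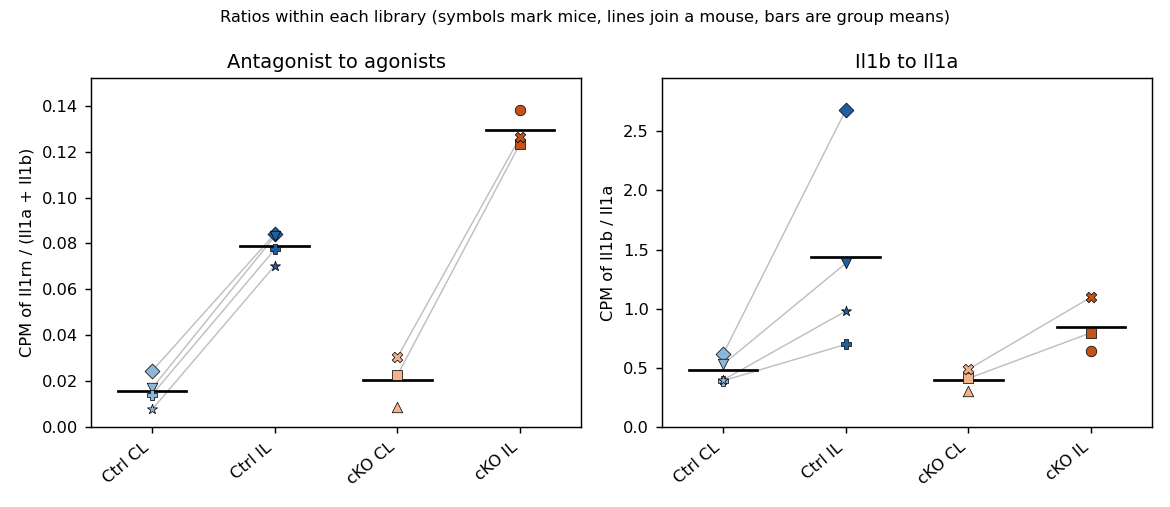
Ratios of CPM within each library for *Il1rn* over *Il1a* plus *Il1b* (left) and *Il1b* over *Il1a* (right), by group, with symbols for mice, lines joining a mouse and bars for group means. The left ratio is 0.0703 to 0.0841 in Ctrl IL and 0.124 to 0.138 in cKO IL, and the right ratio overlaps between these groups.

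The receptors and decoys of these cytokines were tested next. Of 13 genes, 12 could be tested and *Il18r1*, a chain of the IL-18 receptor, did not pass the filter. None was called between genotypes or in IL against CL of Ctrl. With the mouse as a block, 5 of 12 were called in Ctrl, against 20.5% of all genes, with *Il18bp* (adjusted p = 0.00105), *Il1r2* (0.0229) and *Il1rap* (0.0309) higher and *Il10ra* (0.00875) and *Il6st* (0.0194) lower. In cKO, 3 of 12 were called higher and 2 lower in IL, against 22.4% of all genes, and 1 and 2 with the block, against 13.8%. The median log2 fold change of the 12 was 0.09 in Ctrl and 0.37 in cKO.

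*Il1r2*, the decoy receptor that binds IL-1 without signalling, rose in cKO by 1.35 on the log2 scale (SE 0.36, adjusted p = 0.0301), from 7.27 ± 1.67 to 20.4 ± 11.4 CPM. In Ctrl it was at 22.0 ± 12.0 CPM in CL and 39.3 ± 21.3 in IL, a difference of 0.88 (SE 0.56, adjusted p = 0.429). *Il18bp*, which neutralises IL-18, rose in cKO by 0.98 (adjusted p = 0.0235), and its difference in Ctrl was 1.46 (adjusted p = 0.0717). *Il1rap*, the accessory chain of the IL-1 receptor, rose in cKO by 0.60 (adjusted p = 0.0229) beside a difference of 0.58 in Ctrl (adjusted p = 0.182). Each of these 3 calls was lost without cKO CL of mouse 788 or cKO IL of mouse 784, with adjusted p from 0.0594 to 0.0834. The call of *Il1r2* was also lost without cKO CL of mouse 791 (0.0526) and that of *Il1rap* without cKO IL of mouse 791 (0.0721), whereas *Il18bp* lost it without any library but cKO CL of mouse 3592. The mouse as a block ended the calls of *Il18bp* (adjusted p = 0.0577) and *Il1rap* (0.0671), and the fit of all 14 libraries ended all 3 (0.175 for *Il18bp*, 0.186 for *Il1r2* and 0.0974 for *Il1rap*).

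The IL-6 receptor chains went the other way in cKO. *Il6ra* was lower in IL by -0.76 (SE 0.12, adjusted p = 0.00486) and *Il6st*, which encodes gp130, by -0.62 (SE 0.11, adjusted p = 0.00839). Both lost the call only in the fit of all 14 libraries. In Ctrl their differences were -0.09 and -0.45, with adjusted p of 0.929 and 0.556. For *Il10ra*, the ligand-binding IL-10 receptor chain, the differences were -0.63 in Ctrl and -0.52 in cKO (adjusted p = 0.0713 and 0.0536).

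The TNF receptors differed little by side. *Tnfrsf1a* had differences of -0.09 in Ctrl (95% interval -0.42 to 0.24) and 0.02 in cKO (-0.21 to 0.25), and *Tnfrsf1b* of 0.15 (-0.23 to 0.53) and 0.14 (-0.11 to 0.39). The signalling IL-1 receptor *Il1r1* had 0.03 in Ctrl and 0.39 in cKO, the inhibitory receptor *Sigirr* 0.27 and 0.63, *Il18rap* -0.40 and 0.54, and *Il10rb* 0.22 and 0.36, none of them called. Between genotypes, *Il1r2* was the lowest of the list, at -0.86 in IL (adjusted p = 0.761) and -1.33 in CL (adjusted p = 0.307, and 0.0375 with a call without Ctrl CL of mouse 3551), and *Il6st* the highest, at 0.33 and 0.50.

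**Figure D5:**
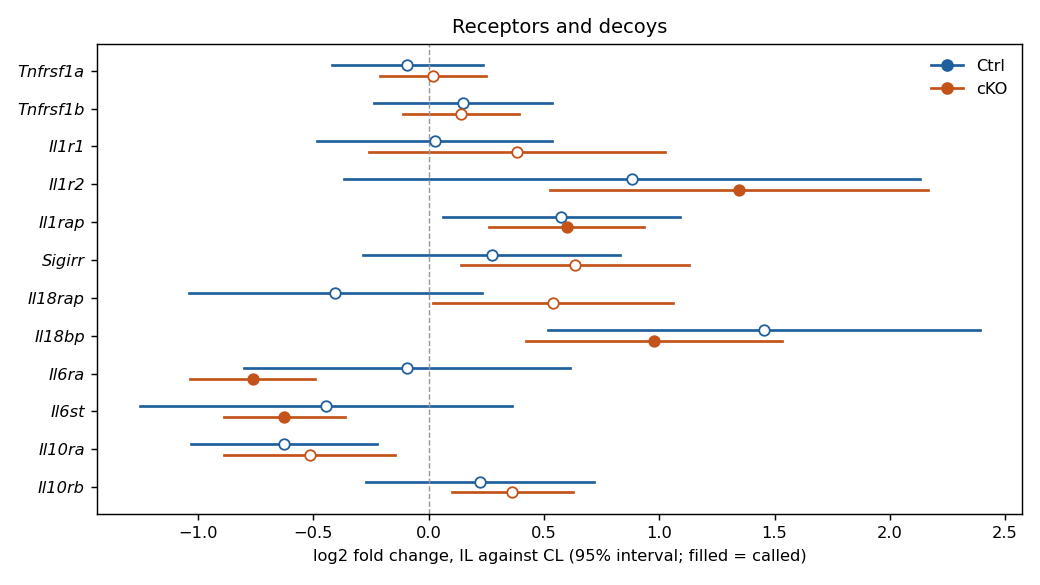
Log2 fold change of IL against CL (horizontal axis, with 95% intervals) for 12 receptor and decoy genes in Ctrl and cKO mice, with filled points for called genes. Of these, 5 are called in cKO and none in Ctrl, and the intervals of the genotypes overlap for all 12.

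Of 29 genes for processing, signalling and feedback, 3 were called in Ctrl and 9 in cKO between hemispheres, against 6.56% and 22.4% of all genes tested, and none between genotypes. With the mouse as a block the counts were 11 in Ctrl and 5 in cKO, against 20.5% and 13.8% of all genes. *Bcl3*, an NF-kB cofactor, rose by 1.43 in Ctrl (SE 0.25, adjusted p = 0.00922) and 1.96 in cKO (SE 0.21, adjusted p = 0.00183). *Rhbdf2*, the iRhom2 partner of the protease that sheds TNF, rose by 1.23 (adjusted p = 0.00486) and 1.195 (adjusted p = 0.00255). Both genes were called under every alternative in both genotypes.

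*Nlrp3*, the inflammasome sensor, rose by 0.83 in Ctrl (adjusted p = 0.0496) and 0.57 in cKO (adjusted p = 0.0294), and these calls held in 5 of 16 and 9 of 14 alternatives. In cKO, *Pycard* (0.48), *Map3k8* (0.62), *Tradd* (0.58), *Irak3* (0.59) and *Stat3* (0.43) were also called higher, in 6 to 11 of 14 alternatives each. All 5 calls were lost in the fit of all 14 libraries. The mouse as a block ended those of *Pycard* (adjusted p = 0.0545), *Irak3* (0.0582), *Stat3* (0.0745) and *Tradd* (0.0878). Without cKO IL of mouse 784, *Pycard*, *Map3k8*, *Tradd* and *Stat3* lost the call (adjusted p from 0.0537 to 0.0894), and without cKO IL of mouse 791 *Pycard*, *Map3k8*, *Irak3* and *Stat3* did (0.0594 to 0.143). *Nfkb1*, which encodes an NF-kB subunit, was lower by -0.64 (adjusted p = 0.0123) and was called under all 14 alternatives. In Ctrl the differences were -0.55 for *Nfkb1* (adjusted p = 0.0836), 0.64 for *Irak3* (0.252) and 0.48 for *Stat3* (0.133), and the mouse as a block called all 3 (adjusted p = 0.00362, 0.0188 and 0.0204). Those of *Pycard*, *Tradd* and *Map3k8* in Ctrl were -0.04, 0.39 and 0.25, called neither with nor without the block. Between genotypes, *Tnfaip3*, an inhibitor of NF-kB signalling, had the highest difference of the list, 0.65 in IL (adjusted p = 0.253) and 0.86 in CL (adjusted p = 0.324), and *Irak3* the lowest, -0.49 and -0.46.

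Of 48 other interleukin and TNF family genes listed, 37 were in the table and 21 to 25 were tested in each comparison. In Ctrl 6 of 21 were called between hemispheres and in cKO 7 of 22, against 6.56% and 22.4% of all genes. The mouse block gave 13 of 21 and 7 of 22, against 20.5% and 13.8%. In Ctrl IL, *Tnfsf9* (2.14, adjusted p = 0.0105), *Tnfsf13* (1.67, adjusted p = 0.00726), *Osm* (1.59, adjusted p = 0.00219), *Lif* (1.57, adjusted p = 0.00174) and *Tnfsf12* (1.22, adjusted p = 0.00636) were called higher. *Il16* was lower (-0.88, adjusted p = 0.0252), a call that held in 10 of 16 alternatives. *Osm* and *Lif* encode gp130 cytokines related to IL-6, and *Tnfsf9* the ligand of 4-1BB.

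In cKO IL, *Tnfsf9* (2.01), *Osm* (1.33) and *Lif* (1.83) were again called under every alternative, as were *Il23a* (1.88, adjusted p = 0.00687), a subunit of IL-23, *Il16* (-0.98) and *Tnfsf13b* (-0.96), which encodes BAFF. In Ctrl the differences of *Il23a* and *Tnfsf13b* were 1.66 (adjusted p = 0.0903) and -0.64 (adjusted p = 0.0884), and the fit with the mouse block called the pair (adjusted p = 0.0179 and 0.00266). *Tnfsf12* (0.84, adjusted p = 0.0339) was called in 6 of 14 and lost the call with the mouse as a block (adjusted p = 0.102). *Osm*, at 594 ± 141 CPM in cKO IL and 462 ± 77.6 in Ctrl IL, was the most abundant of those called. None was called between genotypes. *Il12b*, the subunit shared by IL-12 and IL-23, had the highest difference in IL, 2.31 (SE 0.69, adjusted p = 0.284), with cKO IL libraries from 8.80 to 85.1 CPM above Ctrl IL libraries from 3.11 to 7.59, and *Il1f9* the lowest, -1.32 (adjusted p = 0.642). Between hemispheres *Il12b* was not called, with differences of 1.08 in Ctrl (SE 0.36, adjusted p = 0.117) and 2.01 in cKO (SE 0.96, adjusted p = 0.169). The mouse block gave 1.08 and 1.94 and called both (adjusted p = 0.0412 and 0.00126).

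Markers of other CD11b+ cells and of handling were compared beside these values. The 11 neutrophil markers summed in Ctrl to 1422 to 8629 CPM in CL and 909 to 1508 in IL, and in cKO to 1349 to 2452 in CL and 918 to 1161 in IL, with the lower median in IL in both genotypes, where *Il1b* and *Il1rn* were higher. All 11 had log2 differences below 0 in IL against CL in both genotypes, with medians of -2.67 in Ctrl and -1.26 in cKO. Of these 11, 6 were called lower in cKO and 0 in Ctrl, where the lowest adjusted p was 0.0696, against 9.52% and 2.96% of all genes. With the mouse as a block, 7 were called lower in cKO and 9 in Ctrl, where 13.8% and 20.5% of all genes were called in either direction. The 7 monocyte markers overlapped in their sums (Ctrl 82.1 to 667 CPM in CL and 148 to 349 in IL, cKO 91.5 to 205 in CL and 176 to 237 in IL), while 3 of 7 were called higher in IL in Ctrl and 4 in cKO, against 3.6% and 12.8% of all genes. Not all 7 went this way. In Ctrl 5 of 7 had differences above 0, and *Ly6c2* was lowest at -1.03. In cKO 6 of 7 were above 0, with *Chil3* at -0.27. Mean *Chil3* in Ctrl was 236 CPM in CL and 104 in IL. The 12 genes of the dissociation response summed to 20984 to 25774 CPM in IL and 29667 to 46336 in CL. Of these 12, *Nr4a1* alone had differences above 0 in IL (1.02 in Ctrl and 0.75 in cKO). It was called higher in both genotypes, against 3.6% and 12.8% of all genes. Called lower were 1 of 12 in Ctrl and 5 in cKO, against 2.96% and 9.52%. The 6 border macrophage markers overlapped between the hemispheres of each genotype, at 157 to 746 CPM in all libraries. Their differences went both ways. In Ctrl the median was -0.90 and 1 of 6 was called lower, against 2.96% of all genes. This was *Cbr2* (-0.90, adjusted p = 0.0496), beside *Lyve1* at -1.28 (adjusted p = 0.0835) and *Pf4* at 1.08 (adjusted p = 0.307). In cKO the median was -0.09 and none was called. The 4 astrocyte markers summed to 27.4 to 55.1 CPM in IL and 11.0 to 23.5 in CL. *Gfap* was the 1 of 4 called in either genotype (1.85 in Ctrl and 1.95 in cKO), against 3.6% and 12.8% of all genes called higher. *Slc1a2* had differences below 0 (-0.33 and -0.23). The 5 dendritic, 8 T and NK cell and 4 B cell markers summed to at most 63.1, 18.8 and 43.4 CPM in any library. Of the T and NK cell markers, 4 could be tested in Ctrl and 3 of them were called lower in IL (*Nkg7*, *Klrb1c* and *Gzma*), against 2.96% of all genes. The fourth was *Ncr1* (-0.49), and the T cell genes *Cd3e*, *Cd3d*, *Cd3g* and *Trbc2* were not tested in Ctrl. In cKO none of 6 was called, against 9.52% of all genes called lower. The 4 endothelial markers summed to 68.7 to 157 CPM and the 5 oligodendrocyte markers to 34.6 to 135 CPM. In cKO 1 of 4 tested in each list was called higher in IL, *Kdr* (1.25, adjusted p = 0.0101) and *Mobp* (1.08, adjusted p = 0.0136). The share over all genes was 12.8%. In Ctrl none was called, with all 5 oligodendrocyte markers below 0 there.

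Between genotypes in CL, 10 of 11 neutrophil markers (median -1.25) and 6 of 6 border macrophage markers (median -0.97) had differences below 0, on the side where *Il1r2* was at -1.33. None of the markers in these 2 lists was called (lowest adjusted p 0.352 and 0.262), and in IL their medians were -0.21 and -0.19. In CL no difference was above 0 in the oligodendrocyte (median -1.19), T and NK cell (-0.69), monocyte (-0.29), B cell (-0.16) or astrocyte list (-0.13) either. The homeostatic microglia, dendritic, endothelial and neuronal lists had both signs there, and the median over all genes was -0.05. The markers called between genotypes were *Mobp* in CL (-1.70, adjusted p = 0.0464) and *Olfml3* in IL (-1.14, adjusted p = 0.0361), a homeostatic microglia marker. These were 1 of 4 oligodendrocyte and 1 of 8 homeostatic microglia markers tested, against 0.41% and 0.302% of all genes called lower. Of the 12 dissociation genes, 8 had differences between genotypes above 0 in IL (median 0.09) and 9 in CL (median 0.28). *Nr4a1* was the highest (0.63 in IL and 0.89 in CL) and *Hspa1b* the lowest (-2.18 and -2.32). None of the 12 was called (lowest adjusted p 0.0704 and 0.0532). The part of cell makeup or handling in the differences between hemispheres or genotypes was not tested.

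Genes with the most similar profile were ranked over the 14 libraries by Pearson's r of the scaled log2(CPM + 1) values, as a description, since the libraries share hemispheres, mice and depth. *Il1rn* ran closest to *Noct* (r = 0.984), *Plk2* (0.981) and *Lrrc8c* (0.978), and *Il1b* to *Ucp2* (0.973), *Pgam1-ps2* (0.971) and *Pgam1* (0.969), of which the last 2 are near-identical copies that may share reads. *Tnf* was nearest to *Aldh18a1* (0.946), *Rasgef1b* (0.927) and *Nfkbiz* (0.922), and *Il10* to *Acp5* (0.957), *Angptl4* (0.949) and *Ms4a6d* (0.941). For *Il1a* (*Ercc4*, 0.849; *Aldh3b3*, 0.846; *Xlr4b*, 0.844), *Il18* (*Rpph1*, 0.883; *Oas1b*, 0.852; *P4ha1*, 0.849) and *Il6* (*Alg9*, 0.858; *Cars*, 0.858; *Gm8979*, 0.855) the nearest genes were less close.

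Among the members, *Il1b* and *Il1rn* ran together (r = 0.886 over 14 libraries, and 0.704 after subtracting group means), as did *Tnf* and *Il1a* (0.695 and 0.706). *Il10* had r = 0.809 with *Il1b* and 0.794 with *Il1rn*, and 0.447 and 0.398 after subtracting group means. The highest value within groups was that of *Il1b* and *Il18* (0.761, against 0.213 over all 14), and *Il18* and *Il6* had 0.637 there and 0.554 over all 14. *Il1b* and *Il1a* had r = 0.108 and, within groups, 0.343, and *Tnf* and *Il1rn* 0.551, which fell to 0.05 within groups.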

How the data were processed

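RNA-seq libraries of CD11b+ cells were prepared with the Smart Seq v4 kit. The authors mapped reads with STAR to mm10 in Partek Flow 8.0 and deposited 1 value per gene and library as raw counts. Each library sums to 1e+06, so the deposited values are CPM. Depth was recovered from the smallest step of the CPM values. Between 78.8% and 83.8% of values under 100 reads were whole multiples of that step within 0.03, too few for a test on counts. The count of reads per library is therefore an estimate. Libraries were grouped by their labels. The authors' tables comparing genotypes, which hold p-values, step-up FDR, ratios, fold changes and least-squares means, were not used.

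CPM were divided by trimmed-mean-of-M factors (30% of M and 5% of A values trimmed, 0.879 to 1.15 over all 14 libraries), and log2(CPM + 1) was fitted with limma 3.58.1 in R 4.3.3 (empirical Bayes with a trend) on the libraries compared. Fold changes are on that scale, which understates the change of scarce genes. A gene was tested if it reached 10 reads at median depth in a number of libraries equal to the smaller group, with 15 reads in total. Benjamini-Hochberg adjustment covered all genes tested. Between genotypes within 1 hemisphere, p-values rest on the spread between mice. Fits of both hemispheres without a block, the interaction included, took libraries of the same mouse as independent. With the mouse as a block in IL against CL, p-values rest on the spread of differences within mice. Calls needed an adjusted p of 0.05 or less with a fold of 1.2 or more. The procedure was tested on simulated data. The level of the targeted gene and 1 cell type marker are not reported here.

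Same-numbered libraries come from the same mouse. Correlations of their deviations from group means were 0.18 to 0.61 in 6 mice, against -0.54 to 0.50 for 19 other pairs. The numbers 784 and 788 were taken as different mice by their labels. Their correlation was 0.181, beside 0.182 for the 2 libraries of mouse 791, so it does not settle this.

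The members and gene lists were chosen with earlier results of these data known. Named were all members and receptors, the listed genes called in a comparison or highest or lowest where none was, and the 3 genes closest to each member. Gene positions and exon lengths came from GENCODE vM21 and upstream bases from RefSeq (GRCm38.p6). Alternatives were pseudocounts of 0.5 and 0.1, CPM without scaling, median-ratio scaling, looser and stricter filters, all 14 libraries in a single fit, the mouse as a block, and leaving out each library.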

Additional observations from a re-analysis of the deposited data

Results flagged for a closer look

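*Il6* in Ctrl IL was marked because mouse 3545, at 12.1 CPM, stood far from the 3 other mice, at 3.25 to 3.68 CPM. The gap to the nearest of them was 0.951 of the group's range. Of 16 groups of 4 examined in this way (the 7 genes and the ratio of *Il1rn* to *Il1a* plus *Il1b*, in Ctrl CL and Ctrl IL), this was the only one, and chance marks about 1 in 20. The same mouse had 7.35 CPM of *Il6* in CL, inside the range of the other Ctrl CL libraries. Without Ctrl IL of mouse 3545 the log2 difference of IL against CL in Ctrl was -0.79, and that of cKO against Ctrl in IL 1.26, neither of them called. Without cKO IL of mouse 791, the high library of that group, the difference of cKO against Ctrl in IL was 0.30. With all libraries it was 0.83.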

How the results depend on the processing

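For the log2 differences of single members, direction and side of the threshold were kept in 258 of 273 values under the other settings and in 265 of 294 with 1 library left out. The number of members called between genotypes in IL moved from 0 to 1 on the deposited CPM and was 0 to 1 with a library left out. In IL against CL of Ctrl it moved from 1 to 2 on the deposited CPM and to 3 in the fit of all 14 libraries and with the mouse as a block (1 to 2 with a library left out). In cKO it moved from 3 to 1 in the fit of all 14 libraries (2 to 3).

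Over all genes, the calls between genotypes in IL moved from 111 to 69 without a filter and 190 with the mouse as a random block (46 to 284 with a library left out), and in CL from 145 to 86 with the stricter filter, 265 in the fit of all 14 libraries and 290 with the random block (70 to 165). In IL against CL they moved in Ctrl from 1074 to 590 without a filter, 2010 in the fit of all 14 libraries and 3357 with the block (487 to 1413), and in cKO from 3746 to 1391 and, with the block, 2315 (1881 to 3537). The interaction gave 3 genes with the random block and 0 to 1 with a library left out. On the deposited CPM the split of higher and lower calls was 625 and 814 in place of 590 and 484 in Ctrl, and 1647 and 2146 in place of 2150 and 1596 in cKO. Per kb, the ratio of *Il1rn* to *Il1a* plus *Il1b* was 0.00556 in Ctrl CL, 0.0275 in Ctrl IL, 0.00724 in cKO CL and 0.0454 in cKO IL.

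Some log2 differences changed sign. In IL against CL of cKO, *Il1a* was -0.022 on the deposited CPM, and *Il6* was 0.0093 in the fit of all 14 libraries and 0.24 with the mouse as a block. With a library left out, the range was -0.18 to 0.44 for *Il1a*, -0.024 to 0.44 for *Il18* and -0.55 to 0.37 for *Il6* there, -0.19 to 0.23 for *Il1b* and -0.15 to 0.024 for *Il10* between genotypes in IL, and -0.14 to 0.28 for *Il1b* in CL. In the interaction it was -0.28 to 0.16 for *Il1b*, -0.21 to 0.75 for *Il6* (0.32 with all libraries) and -0.061 to 0.30 for *Il10*. The block changed no call of a member other than those given in the report, and the cause of these changes was not tested. *Il16* and *Nlrp3* in Ctrl, and *Nlrp3*, *Irak3* and *Tnfsf12* in cKO, each lost the call without any of 4 or more single libraries.

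With 3 or 4 libraries a group, most intervals for *Il6*, *Il1a* and *Il10* span differences of 1.2-fold in both directions, and *Il10* and *Il6* rest on as few as 43 and 45 reads in a library.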
